A study of Ciona robusta with 6 samples.

Results

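Brachyury, Foxa.a and Mnx are transcription factors of the ascidian notochord network, and their transcript levels were examined here in whole embryos of the tunicate Ciona robusta whose Brachyury gene was targeted with Cas9. They were chosen for their known place in that network, by identifier, as the gene models KH.S1404.1 (Brachyury), KH.C11.313 (Foxa.a) and KH.L128.12 (Mnx). All 3 were found among the 15284 gene models of the deposited table, and all 3 passed the filter on low values. The table gives identifiers only, so the pairing of these identifiers with names rests on general knowledge of the KH gene model set and could not be checked against the files. Tissue markers could not be read for the same reason.

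CrBra embryos had received a ribonucleoprotein of Cas9 protein, tracrRNA and a crRNA against Brachyury as unfertilized eggs. CrGFP embryos, the controls, had received the same mix with a guide against GFP, a jellyfish gene that the species lacks. Embryos of either group were then fertilized, grown in artificial seawater at 21 degrees Celsius and collected whole at Hotta stage 14, which is a neurula stage, with 50 to 85 embryos pooled per sample. Each group had 3 libraries, called biological replicates in the series' design text and numbered 1 to 3 in each group. The labels give neither the strain, the parents of the embryos nor the share of alleles that were edited, and injected embryos can be mosaics of edited and unedited cells.

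Brachyury is a T-box factor that in ascidians is switched on in the notochord lineage, where it is required for the notochord fate and drives genes of notochord morphogenesis. Foxa.a is a forkhead factor made in the early vegetal lineages, among them the endoderm, the notochord and the ventral nerve cord, and it acts upstream of Brachyury. Mnx is a homeodomain factor whose vertebrate relatives are best known from motor neurons. Since RNA came from whole embryos, a level sums over all tissues that make the transcript, and fewer cells of a type and less RNA per cell cannot be told apart. The question was whether the partner factors were lower in embryos whose Brachyury gene was targeted.

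The libraries held 13191537 to 16094085 reads on gene models and detected 13924 to 14067 models each. Levels are given as normalised counts, which the authors made by dividing reads by 1 factor for each library, and they are comparable between libraries for a gene but not between genes, as no length was applied. CrBra was compared with CrGFP within each replicate number, as the question was set that way. Libraries that share a number deviated from their group means together, with correlations of 0.82 to 0.88 across gene models. This likeness was known when the test was chosen. The main test was limma on log2(normalised count + 1) with the replicate number as a block. Benjamini-Hochberg adjustment ran over the 11953 tested models, and an adjusted p under 0.05 counted as passing. In this test 46 models, or 0.385% of those tested, were lower in CrBra at that threshold, and 1 of the 3 regulators, the targeted Brachyury, was among them.

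Brachyury transcript fell strongly in CrBra embryos, as the level of the targeted gene itself. Its normalised count was 298, 205 and 313 in CrBra replicates 1, 2 and 3, against 950, 582 and 1058 in CrGFP replicates 1, 2 and 3. All 3 CrBra libraries lay below all CrGFP libraries, as in 1.14% of the tested models, and replicate 2 was the lowest within each group. The means were 272 ± 58.3 in CrBra and 863 ± 249 in CrGFP (SD, n = 3 each). Pair by pair, this left 31.4%, 35.3% and 29.6% of the control level in CrBra. The 95% intervals for counting error alone (exact, Clopper-Pearson) were 27.7% to 35.5%, 29.7% to 41.7% and 26.0% to 33.6%, and these intervals overlapped between all 3 pairs.

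In limma with the block Brachyury had a log2 fold change of -1.64 (SE 0.076, adjusted p = 8.89e-05), and its 95% interval ran from -1.81 to -1.47. Without the block limma gave the same fold change with a standard error of 0.28 (adjusted p = 0.608), and the call was lost. That fit called 0 of the 11953 tested models. On the deposited regularized log2 scale, which shrinks differences, Brachyury stood at 8.56, 8.31 and 8.60 in CrBra libraries and at 9.51, 9.08 and 9.61 in CrGFP libraries. An editing guide changes DNA and need not lower the transcript, so the residual 32.1% ± 2.9 (SD, n = 3 pairs) is a transcript level and not a measure of unedited alleles.

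**Figure D1:**
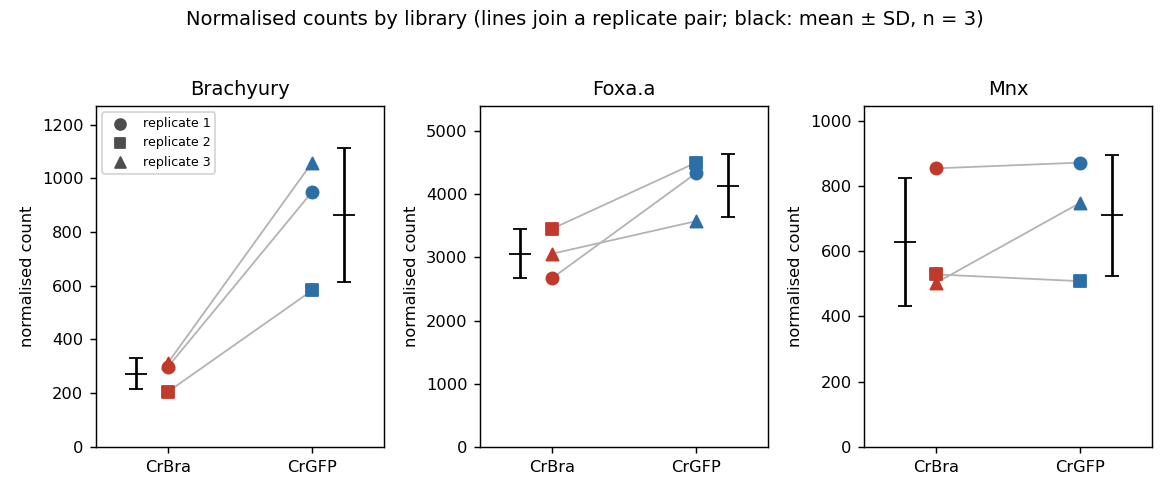
Normalised count (y axis, linear from 0) of Brachyury, Foxa.a and Mnx in the CrBra and CrGFP libraries, with a marker for each replicate number, lines joining libraries of the same number, and black bars for the mean ± SD (n = 3). Brachyury and Foxa.a are lower in CrBra in every pair, while Mnx is clearly lower only in replicate 3.

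Foxa.a, the upstream forkhead factor, was lower in CrBra in every pair, by a smaller and less even amount than Brachyury. Its normalised count was 2672, 3454 and 3058 in CrBra replicates 1, 2 and 3, against 4336, 4501 and 3575 in CrGFP replicates 1, 2 and 3. The groups did not overlap, but the highest CrBra library (replicate 2) and the lowest CrGFP library (replicate 3) lay close to each other. The means were 3061 ± 391 in CrBra and 4137 ± 494 in CrGFP (SD, n = 3 each). All 3 CrBra libraries were below all CrGFP libraries in 1.14% of the tested models, and 11.1% were lower in CrBra in each of the 3 pairs.

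Foxa.a had a log2 fold change of -0.44 (SE 0.082), and its 95% interval of -0.62 to -0.25 corresponds to 64.9% to 84.3% of the control level. It did not pass in limma with the block (unadjusted p = 0.00066, adjusted p = 0.108). By unadjusted p it was number 73 among the tested models, so 0.611% of them had a p as low. DESeq2 with the block, run on the recovered whole reads, gave the same fold change of -0.44 with a standard error of 0.1 and called it (adjusted p = 0.00346). DESeq2 called 55 models lower in that fit, or 0.46% of those tested, and Foxa.a was number 43 among its 58 calls in either direction. With the block, edgeR gave an adjusted p of 0.091 and limma-voom one of 0.0928, and neither called it, while they called 0.452% and 0.435% of the tested models lower. Whether Foxa.a passed thus depended on the tool, while the size of the difference was -0.43 to -0.44 in each of these fits.

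The Foxa.a difference was uneven across the pairs. CrBra kept 61.6% of the control level in pair 1, 76.7% in pair 2 and 85.5% in pair 3. The counting intervals of these shares, 58.9% to 64.5%, 73.3% to 80.4% and 81.4% to 89.8%, did not overlap, and each lay below 100%. Each library held 2989 to 4475 reads of this gene. On the regularized log2 scale Foxa.a stood at 11.55, 11.77 and 11.66 in CrBra libraries and at 11.97, 12.01 and 11.80 in CrGFP libraries.

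Leaving out pairs moved the Foxa.a call in limma. Such fits hold fewer pairs, so their p-values rest more on the spread that limma borrows from other models. A pass in them is therefore not stronger evidence than the main test. Without pair 1, which had the largest difference, the log2 fold change was -0.30 (adjusted p = 0.0104, limma with the block). Without pair 2 it was -0.46 (adjusted p = 0.478), and without pair 3, which had the smallest difference, it was -0.54 (adjusted p = 0.00445). In these 3 fits limma called 0.552%, 0.201% and 0.736% of all tested models lower. DESeq2 with the block called Foxa.a only without pair 3 (-0.54, adjusted p = 0.0079), with adjusted p-values of 0.884 without pair 1 and 0.594 without pair 2.

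Mnx, the homeodomain factor, did not differ in the same way in the 3 pairs. Its normalised count was 854, 529 and 503 in CrBra replicates 1, 2 and 3, against 872, 508 and 749 in CrGFP replicates 1, 2 and 3. The groups overlapped almost completely: in replicates 1 and 2 the libraries of a pair were close together, and in replicate 3 the CrBra library was well below its control. The means were 629 ± 196 in CrBra and 710 ± 185 in CrGFP (SD, n = 3 each). Their difference was smaller than the spread within either group, but that spread includes differences among the replicate numbers.

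CrBra kept 98.0% of the control level of Mnx in pair 1 (counting interval 89.5% to 107%), 104% in pair 2 (91.6% to 118%) and 67.2% in pair 3 (59.8% to 75.4%). The intervals of the first 2 pairs included 100%, and that of pair 3 lay below each of them. In limma with the block Mnx had a log2 fold change of -0.18 (SE 0.11, adjusted p = 0.999). Its 95% interval of -0.44 to 0.080, or 73.6% to 106% of the control level, holds no change as well as a loss of the size measured for Foxa.a. Without pair 3 the fold change was 0.014 (adjusted p = 0.988), so the lower mean rested on that pair. On the regularized log2 scale Mnx stood at 9.58, 9.18 and 9.14 in CrBra libraries and at 9.60, 9.15 and 9.47 in CrGFP libraries.

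**Figure D2:**
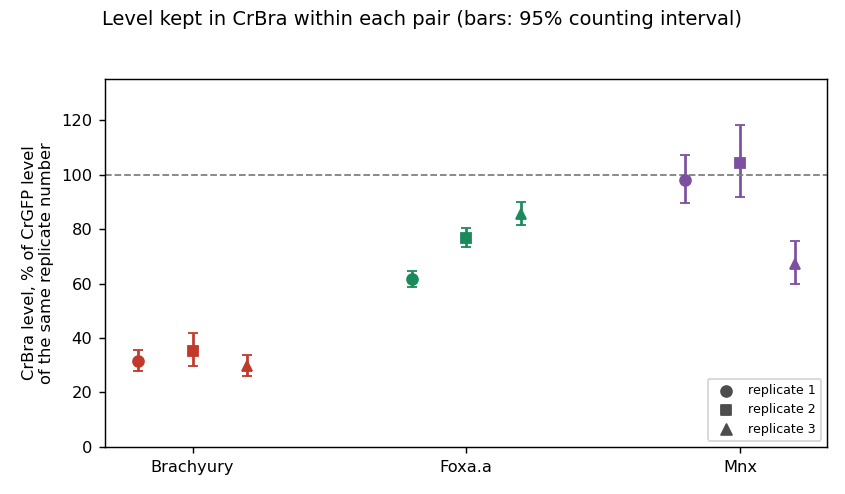
Level in the CrBra library as a percent of the CrGFP library of the same replicate number (y axis), with 95% exact intervals for counting error and a dashed line at 100%. Brachyury kept 29.6% to 35.3% in all pairs, Foxa.a 61.6% to 85.5% and Mnx 67.2% to 104%, and the pair with the lowest share was replicate 1 for Foxa.a and replicate 3 for Mnx.

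The pair in which Foxa.a was most reduced was not the pair in which Mnx was. Pair 3 had the lowest share kept for Brachyury and Mnx and the highest for Foxa.a. Pair 1 had the lowest share for Foxa.a, with Mnx near its control level. With 3 pairs this order is a description only.

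Each regulator was also placed among the within-pair differences of all tested models. The middle 90% of models lay between -0.57 and 0.43 in pair 1, -0.41 and 0.41 in pair 2 and -0.42 and 0.44 in pair 3, as log2 of CrBra over CrGFP. Brachyury, at -1.67, -1.50 and -1.75, was outside that range in every pair. Foxa.a, at -0.70, -0.38 and -0.23, was outside it in pair 1 alone, and 397, 678 and 1350 of the tested models had a difference as low in pairs 1, 2 and 3. Mnx, at -0.029, 0.058 and -0.57, was outside it in pair 3 alone, where 367 models had one as low. Over the fitted fold changes, 0.151% of the tested models had one at or below that of Brachyury, 2.29% at or below that of Foxa.a and 9.43% at or below that of Mnx.

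**Figure D3:**
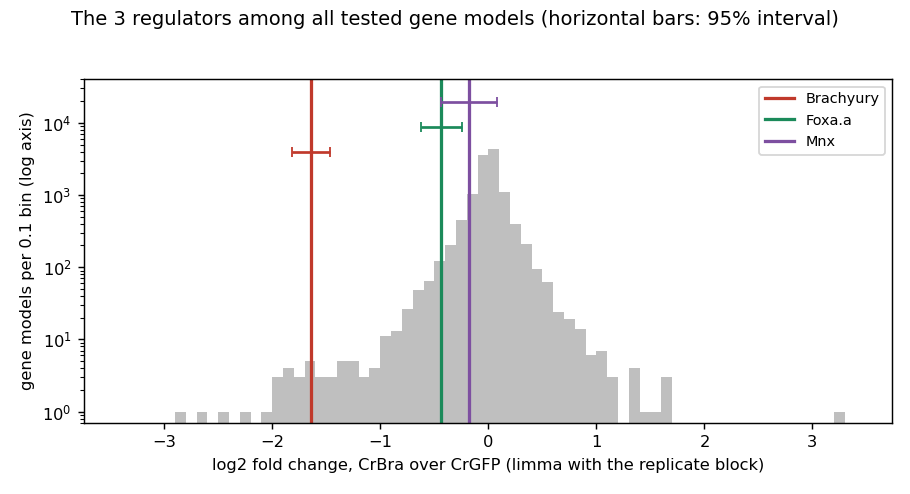
Number of tested gene models (y axis, log scale) by log2 fold change of CrBra over CrGFP from limma with the replicate block (x axis, bins of 0.1), with vertical lines at the 3 regulators and horizontal bars for their 95% intervals. Brachyury at -1.64 lies in the thin lower tail, Foxa.a at -0.44 on the lower shoulder, and Mnx at -0.18 near the bulk with an interval that includes 0.

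Ratios between the regulators within a library do not depend on the library's scaling factor, and so show unequal change directly. The ratio of Brachyury to Foxa.a normalised counts was 0.112, 0.0595 and 0.102 in CrBra libraries, against 0.219, 0.129 and 0.296 in CrGFP libraries. It was lower in CrBra in 3 of 3 pairs and the groups did not overlap, with a mean log2 change of -1.21 ± 0.29 (SD, n = 3 pairs). The ratio of Brachyury to Mnx was 0.349, 0.388 and 0.622 in CrBra libraries, against 1.09, 1.15 and 1.41 in CrGFP libraries. It too was lower in 3 of 3 pairs without overlap, with a mean log2 change of -1.46 ± 0.24 (SD, n = 3 pairs). Brachyury was therefore reduced more than either partner in each pair. For these ratios, exchanging labels within the pairs gave an exact two-sided p of 0.25, and an exact permutation test of 3 against 3 libraries gave a two-sided p of 0.1. These are the smallest values that the design allows.

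The partner factors could not be ordered against each other. The ratio of Mnx to Foxa.a was 0.32, 0.153 and 0.165 in CrBra libraries, against 0.201, 0.113 and 0.21 in CrGFP libraries. It was higher in CrBra in pairs 1 and 2, by 0.67 and 0.44 on the log2 scale, and changed by -0.35 in pair 3. The mean log2 change was 0.25 ± 0.53 (SD, n = 3 pairs), with an exact two-sided p of 0.5 within the pairs and of 0.6 over permutations of 3 against 3 libraries. No exact p could fall under 0.05 in this design. The smallest possible two-sided values are 0.25 within the pairs and 0.1 for 3 against 3 libraries.

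**Figure D4:**
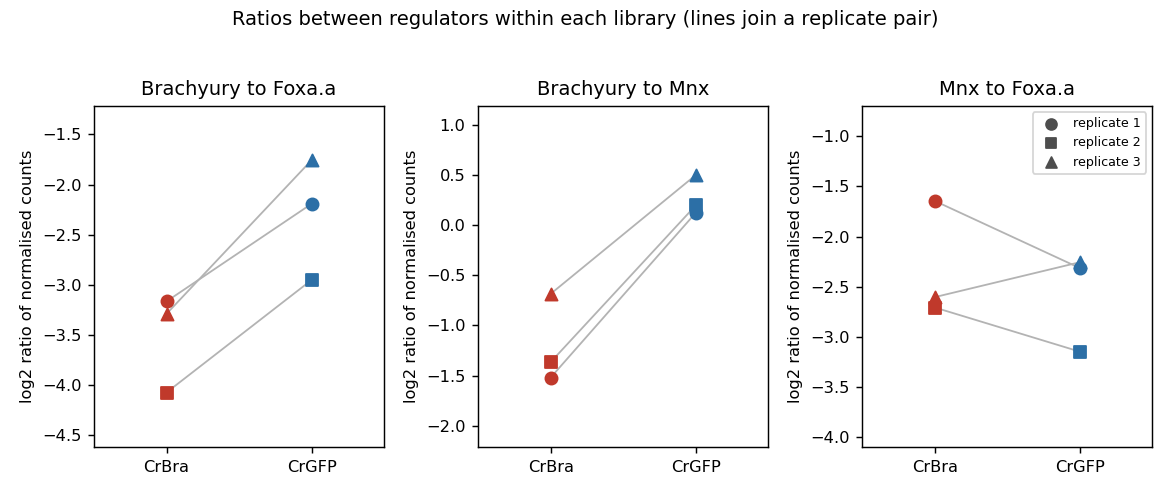
Log2 ratio of normalised counts of a pair of regulators within a library (y axis, each panel spanning the same range) in CrBra and CrGFP libraries, with lines joining libraries of the same replicate number. Brachyury is lower against Foxa.a and against Mnx in every pair, and Mnx against Foxa.a goes up in pairs 1 and 2 and down in pair 3.

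Brachyury and Mnx also differed among the replicate numbers, as most tested models did. In a limma fit that also held the guide, Brachyury differed among the numbers (adjusted p = 0.000406) over a range of 0.73 on the log2 scale, being lowest in replicate 2. Mnx differed as well (adjusted p = 0.00443) over a range of 0.73, highest in replicate 1 and lowest in replicate 2. Foxa.a did not pass in the same limma test (adjusted p = 0.0918), had a range of 0.25 and was highest in replicate 2. Of all tested models 73.4% differed among the numbers, with a median range of 0.56, so such differences are common in these libraries. For Mnx this range was larger than the size of its fold change between guides, and for Brachyury it was smaller.

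Across the 6 libraries, Brachyury and Foxa.a had a Pearson r of 0.61 on the log2 scale, Brachyury and Mnx one of 0.47, and Foxa.a and Mnx one of -0.12. These values describe libraries that share guides and replicate numbers and carry no test. The model most like Brachyury across the 6 libraries was KH.L96.34 (r = 0.99). It stood at 7.62, 5.58 and 8.19 normalised counts in CrBra libraries and 13.6, 11.2 and 17.3 in CrGFP libraries. It did not pass in limma with the block (adjusted p = 0.924). KH.L96.34 is a low model that reached 10 only in CrGFP libraries, so it passed the filter through the controls alone. It was also picked for likeness to Brachyury over these same libraries, so its lower level in CrBra is no separate evidence.

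The model most like Foxa.a was KH.C4.103 (r = 0.99), which fell in CrBra. Its normalised counts were 8.47, 26.8 and 13.3 in CrBra libraries and 61.0, 89.5 and 37.7 in CrGFP libraries, with a log2 fold change of -1.95 (SE 0.28, adjusted p = 0.0344, limma with the block). It was picked for its likeness to Foxa.a over these same libraries, so its lower level in CrBra partly restates that choice and is no separate evidence. The model most like Mnx was KH.L97.3 (r = 0.995), which did not pass in limma with the block (log2 fold change -0.057, adjusted p = 0.999) and whose normalised counts were 923, 748 and 745 in CrBra libraries and 918, 725 and 870 in CrGFP libraries. An r above 0.95 was reached by 9 models with Brachyury, 19 with Foxa.a and 54 with Mnx. None of these identifiers is paired with a name in the sources used here.

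The fitted sizes changed little with the processing, in contrast to the calls. With the block and all pairs, 10 fits on the log2 scale of counts gave Brachyury -1.66 to -1.63 and passed it each time. The same 10 fits gave Foxa.a -0.44 to -0.43 and passed it once, in DESeq2. They gave Mnx -0.18 to -0.17 and passed it in 0 fits. All of these fits use the same libraries and the same block, so their close sizes are no separate evidence. Without the block, DESeq2 called Brachyury (-1.66, adjusted p = 6.74e-05) and neither Foxa.a (unadjusted p = 0.016) nor Mnx (unadjusted p = 0.581), in a fit that called 0.168% of models lower.

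**Figure D5:**
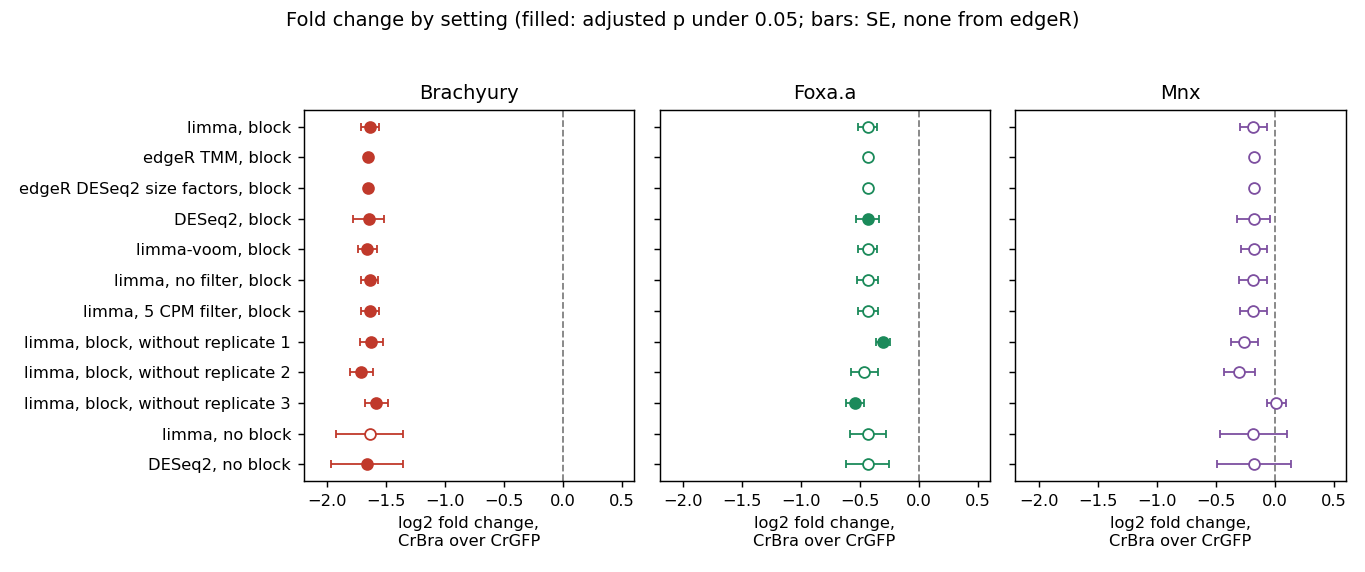
Log2 fold change of CrBra over CrGFP (x axis) for each regulator under 12 fits (rows), with bars for the standard error where the tool gives one and filled markers for an adjusted p under 0.05. Brachyury stays near -1.64 and loses its call in limma without the block, Foxa.a lies near -0.44 with all pairs (filled in DESeq2 with the block) and at -0.30, -0.46 and -0.54 in limma without replicates 1, 2 and 3 (filled without 1 or 3), and Mnx is open throughout and reaches 0.014 without replicate 3.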

How the data were processed

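RNA-seq of 6 whole-embryo samples was analysed from 1 table. The kit was stranded and selected mRNA, per the labels' protocols. TopHat2 2.9.8b and DESeq 1.8.1 are named in the submitters' processing notes, and the version of the first could not be checked. The counting tool, its strand setting and the genome build are not given in the sources used here. Per the file headers, the first block of 6 columns holds a signal, the count normalised to library size by the authors, and the second holds regularized log2 values deposited by the authors. Column names were matched to titles, and 0 columns were left unused. All values of the first block (100%) were whole multiples of 1 read within 0.01 reads, so whole reads were recovered.

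Of the models, 11953 reached a value of 10 in 3 or more libraries and were tested, and 3331 were left out. The test was limma 3.58.1 with a trend in R 4.3.3 on log2(value + 1). The size of this pseudocount affects the fold change of low models. The replicate number was a block, since the question was set within numbers. Same-number deviations correlated at 0.86, 0.88 and 0.82, those of different numbers at -0.57 to -0.30. As deviations are taken from group means, high same-number values make the others negative on average, so the latter are no separate evidence. The labels do not say what a number shares. In the main fit p-values measure the spread of within-pair differences, on 2 residual degrees of freedom, which limma shrinks towards that of other models. In fits without the block they measure the spread among the libraries of a group. edgeR 4.0.16, DESeq2 1.42.0 and limma-voom ran on recovered reads. Tests are two-sided. The limma script was tested on simulated data with 1 dispersion for all models, which checked its fold change estimates and not its error rates in these data. The 3 models, the tests and the naming rule were chosen with earlier results of these data known. The naming rule takes, for each regulator, the tested model with the highest Pearson r over the 6 libraries. A list of notochord and tissue genes could not be used, as 0 of 15284 identifiers matched the RefSeq gene table of this species. Sequences, positions and lengths were not analysed here. Counting intervals cover counting error only.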

Additional observations from a re-analysis of the deposited data

How the results depend on the processing

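With the replicate block, the log2 fold change of Brachyury passed in every fit, at -1.71 to -1.58 without each pair. It lost its call without the block in limma (-1.64), edgeR (-1.66) and limma-voom (-1.63). Foxa.a did not pass in the main test and passed in DESeq2 with the block (-0.44). Without each pair it lay between -0.54 and -0.30. Its adjusted p ranged from 0.00346 to 0.276 over the 10 blocked fits with all pairs and was 0.0916 on the regularized log values. Mnx passed in 0 fits and lay between -0.30 and 0.014 without each pair, changing sign without replicate 3 in limma (0.014) and DESeq2 (0.013). In limma with the block the standard error of Foxa.a was 0.082 with all pairs. It was 0.059, 0.11 and 0.077 without replicates 1, 2 and 3. Each limma fold change without a pair is the mean of the log2 differences in the pairs left. Why the standard errors and calls shifted was not tested.

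Over all models, 48 were called with the block, 27 without a filter and 25 to 100 without each pair (88 without replicate 1). The fits that left out a pair in DESeq2 called 23 to 48. Without the block, limma, edgeR and limma-voom called 0 models, with 60, 62 and 63 at an unadjusted p under 0.05, and DESeq2 called 21. On the shrunken regularized log values the mean log2 change was -0.64 for the Brachyury to Foxa.a ratio and -0.81 for the Brachyury to Mnx ratio. Without each pair these ratios ranged from -1.33 to -1.05 and from -1.60 to -1.37, and the Mnx to Foxa.a ratio from 0.05 to 0.55. The unblocked edgeR and limma-voom fits and the DESeq2 fits without a pair were chosen after seeing the data. The lowest library held 184 reads of Brachyury, 2989 of Foxa.a and 474 of Mnx.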
